A study of Homo sapiens with 15 samples.

Results

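Raising the dose of a particle can change a cell differently from one particle to the next, and that difference is what was measured here for Ag2S NPs with and without lithium. For each gene the change with dose was taken for Li-doped Ag2S NPs (320 minus 160 μg/mL) and for undoped Ag2S NPs (320 minus 160 μg/mL), and the undoped change was subtracted from the Li-doped change. The result is called the dose by doping contrast. It used 12 of the 15 libraries of the series, the 12 from treated cells, and 11920 of the 17214 genes that occur in both joined tables, namely those whose FPKM averaged 1 or more in these 12 libraries. The remaining 5294 genes fell under that mean, with ZNF70 at 1.0 FPKM just inside and ZNF888 at 0.999 FPKM just outside.

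The cells were HaCaT cells, an immortal line grown from human epidermal keratinocytes. They had received Li-doped Ag2S NPs at 320 μg/mL, Li-doped Ag2S NPs at 160 μg/mL, Ag2S NPs at 320 μg/mL or Ag2S NPs at 160 μg/mL for 24 h, or no particles, with 3 libraries of each group. Neither the labels nor the methods state that the 3 libraries came from separate cultures, and p-values here therefore reflect only how far these libraries spread. All groups share 1 cell line, and keratinocytes in culture stand in for only part of the skin. The values are FPKM, a fragment count divided by transcript length and by library size, which the authors deposited with no counts, so the sequencing depth is unknown. Differences are on log2(FPKM + 0.1), a scale that understates the change of weakly expressed genes.

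Several gene programmes recur below, and how they work is background. A shortage of amino acids or unfolded protein in the endoplasmic reticulum slows protein synthesis and raises the transcription factor ATF4, whose targets make and import amino acids. Oxidants and metals release NRF2, which drives antioxidant enzymes. Growth factors of the EGF family signal through EGFR and ERK to genes such as FOSL1 and MYC, and in skin these ligands are released on injury. Keratinocytes also keep a basal level of interferon-stimulated genes, make their own cholesterol under the control of SREBP factors, and leave the cell cycle when they differentiate.

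The libraries were checked before the contrast was read. Summed FPKM ran from 582438 to 698558 over the 15 libraries, and the correlation between libraries of a group ran from 0.977 to 0.988. Keratinocyte markers summed to 25757 to 30973 FPKM with Li-doped Ag2S NPs at 320 μg/mL, 11770 to 14308 FPKM with Li-doped Ag2S NPs at 160 μg/mL, 14521 to 16400 FPKM with Ag2S NPs at 320 μg/mL, 13764 to 15171 FPKM with Ag2S NPs at 160 μg/mL and 9189 to 9537 FPKM in untreated cells. Markers of fibroblasts summed to at most 16.3 FPKM, of endothelial cells to at most 4.01 FPKM, of melanocytes to at most 3.37 FPKM and of leukocytes to at most 30.0 FPKM, the last mostly CD68, in any library. Keratinocyte markers thus moved with group and dose themselves, and their part in the results below was not tested. In bulk RNA, fewer cells of a state and less RNA per cell cannot be told apart.

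One group and one library stood apart. Over the genes tested, the median absolute difference from the untreated mean was 0.403, 0.369 and 0.55 in the libraries of Li-doped Ag2S NPs at 320 μg/mL, against 0.494, 0.474 and 0.527 in those of Li-doped Ag2S NPs at 160 μg/mL. It was 0.345, 0.369 and 0.374 with Ag2S NPs at 320 μg/mL, against 0.249, 0.272 and 0.357 with Ag2S NPs at 160 μg/mL, and 0.0644, 0.0596 and 0.0657 in untreated libraries. With undoped particles the higher dose therefore lay farther from untreated cells in all but 1 library pairing, whereas with Li-doped particles 2 of the 3 libraries labelled 320 μg/mL lay nearer than every library labelled 160 μg/mL. The third, replicate 15, had the highest summed FPKM of the series. The dose of each library is that of its label, and no measurement in these data checks it. If the Li-doped dose labels had been exchanged, every Li-doped dose effect given below would change sign, the 674 genes described as opposite would have dose effects in the same direction, and the contrasts would differ.

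**Figure D1:**
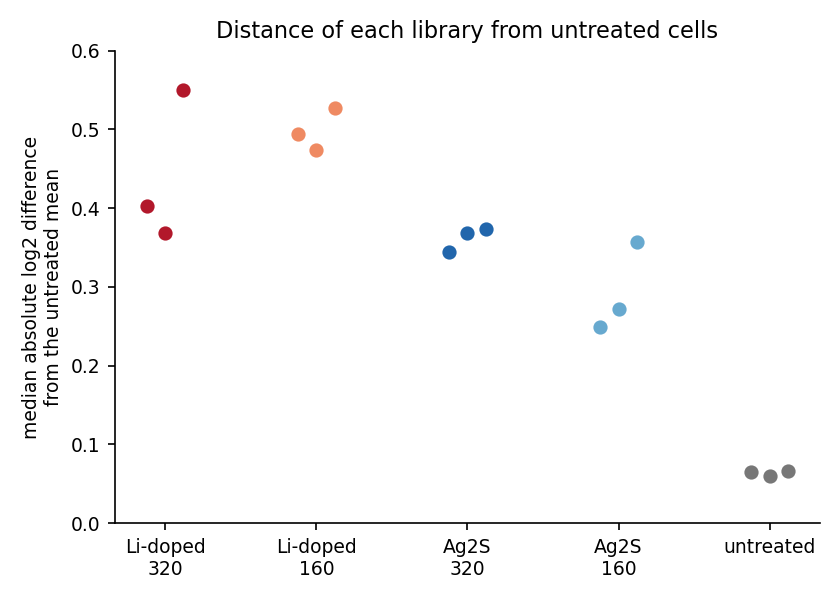
Each point is 1 library and its height the median absolute log2 difference from the mean of the untreated libraries over the 11920 genes tested. Groups run from Li-doped Ag2S NPs at 320 and 160 μg/mL through undoped Ag2S NPs at 320 and 160 μg/mL to untreated cells. The 3 libraries of Li-doped Ag2S NPs at 160 μg/mL sit between 0.474 and 0.527, above 2 of the 3 libraries of the same particle at 320 μg/mL.

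The dose effect differed between the particles in 4353 of the 11920 genes, or 36.5% (limma, Benjamini-Hochberg adjusted p under 0.05). The contrast was above 0 in 2189 genes (18.4% of those tested), where the level at 320 relative to 160 μg/mL was higher with Li-doped than with undoped Ag2S NPs, and below 0 in 2164 genes (18.2%). Its median over all genes was -0.05, so the 2 directions were nearly balanced, and 1599 of the 4353 genes (13.4% of those tested) had a contrast of at least 1 in size on the log2 scale, 754 above (6.33%) and 845 below 0 (7.09%). An unadjusted p under 0.05 was reached by 5450 genes. All 4353 genes kept the sign of their contrast when each of the 12 libraries was left out in turn, and 3857 of them also passed the threshold without replicate 15. Because the genes were called from these same 12 libraries, a kept sign was nearly given in advance and is no separate support.

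The dose effects behind these contrasts were seldom both large. Dose changed 4763 genes, 40% of those tested, with Li-doped Ag2S NPs (18% up and 22% down at 320 μg/mL). It changed 1117 genes, 9.37% of those tested, with undoped Ag2S NPs (3.91% up and 5.46% down). Of the 4353 genes, 2915 (24.5% of those tested) passed the threshold for a dose effect with Li-doped particles alone, 253 (2.12%) with undoped particles alone, 17 (0.143%) with both in the same direction and 494 (4.14%) with neither. The other 674 genes (5.65% of those tested) changed in opposite directions. Of these, 411 (3.45%) rose with dose under Li-doped and fell under undoped particles, and 263 (2.21%) fell under Li-doped and rose under undoped particles. Across the 11920 genes, which are not independent replicates, the 2 dose effects had a Pearson r of -0.36, and they share no library. The count of opposite genes rests on each undoped library at 320 μg/mL: without replicate 7, 8 or 9 it was 386, 356 or 405, and with libraries weighted by limma it was 1559.

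**Figure D2:**
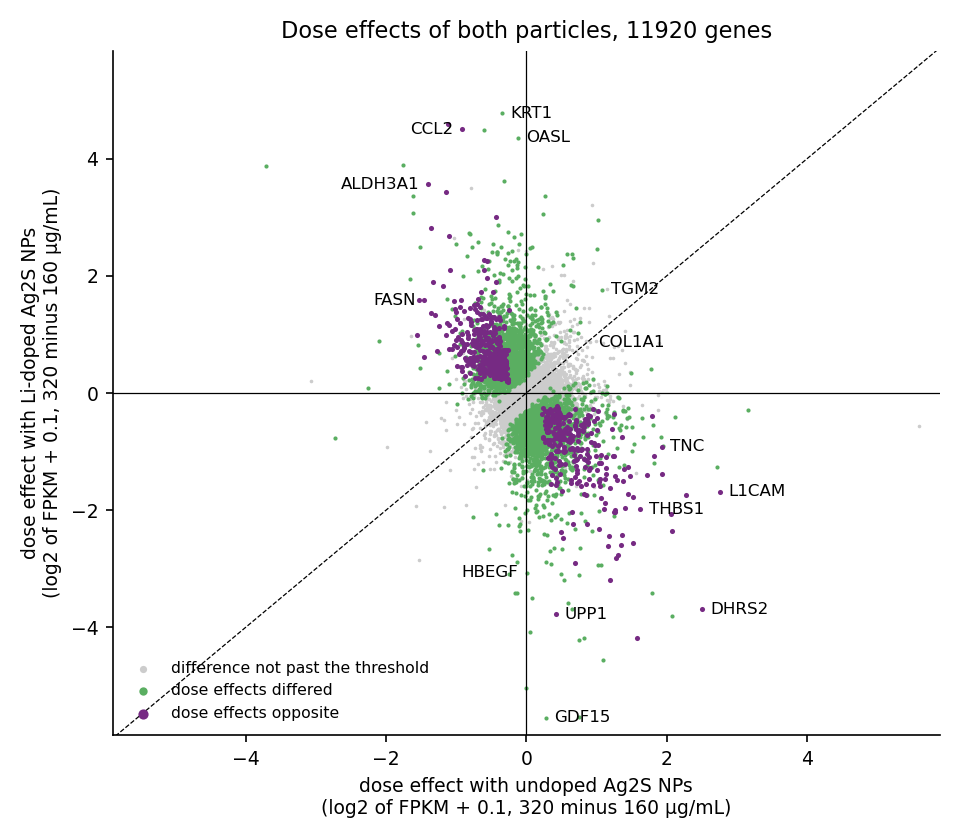
Each point is 1 of 11920 genes, placed by its dose effect (log2 of FPKM + 0.1, 320 minus 160 μg/mL) with undoped Ag2S NPs on the horizontal and with Li-doped Ag2S NPs on the vertical axis. The dashed line marks equal effects, green points the genes whose effects differed and purple points the 674 genes with opposite effects, which fill the upper left (411) and lower right (263) parts of the plot.

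The cells given Li-doped Ag2S NPs at 160 μg/mL had the highest or lowest mean of the 4 treated groups in 86% of the 4353 genes and in 67.7% of all genes tested. The shares among the called genes were 40.5% for Li-doped Ag2S NPs at 320 μg/mL, 17.9% for Ag2S NPs at 320 μg/mL and 55.6% for Ag2S NPs at 160 μg/mL. These shares are a description with no test, since the contrast that called the genes contains all 4 groups. The libraries labelled 160 μg/mL lay farther from untreated cells than those labelled 320 μg/mL in 78.2% of the called genes for Li-doped particles and in 26.9% for undoped particles (57.9% and 33.7% of all genes). Among the 674 opposite genes these shares were 98.1% and 5.93%. A difference of at least 2-fold between Li-doped and undoped particles was found in 215 genes at 320 μg/mL and in 1530 genes at 160 μg/mL. Because the contrast uses both doses of both particles, it does not say by itself which group moved. Group levels are given for many genes below, and where only a contrast is given, the group that moved is not shown.

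**Figure D3:**
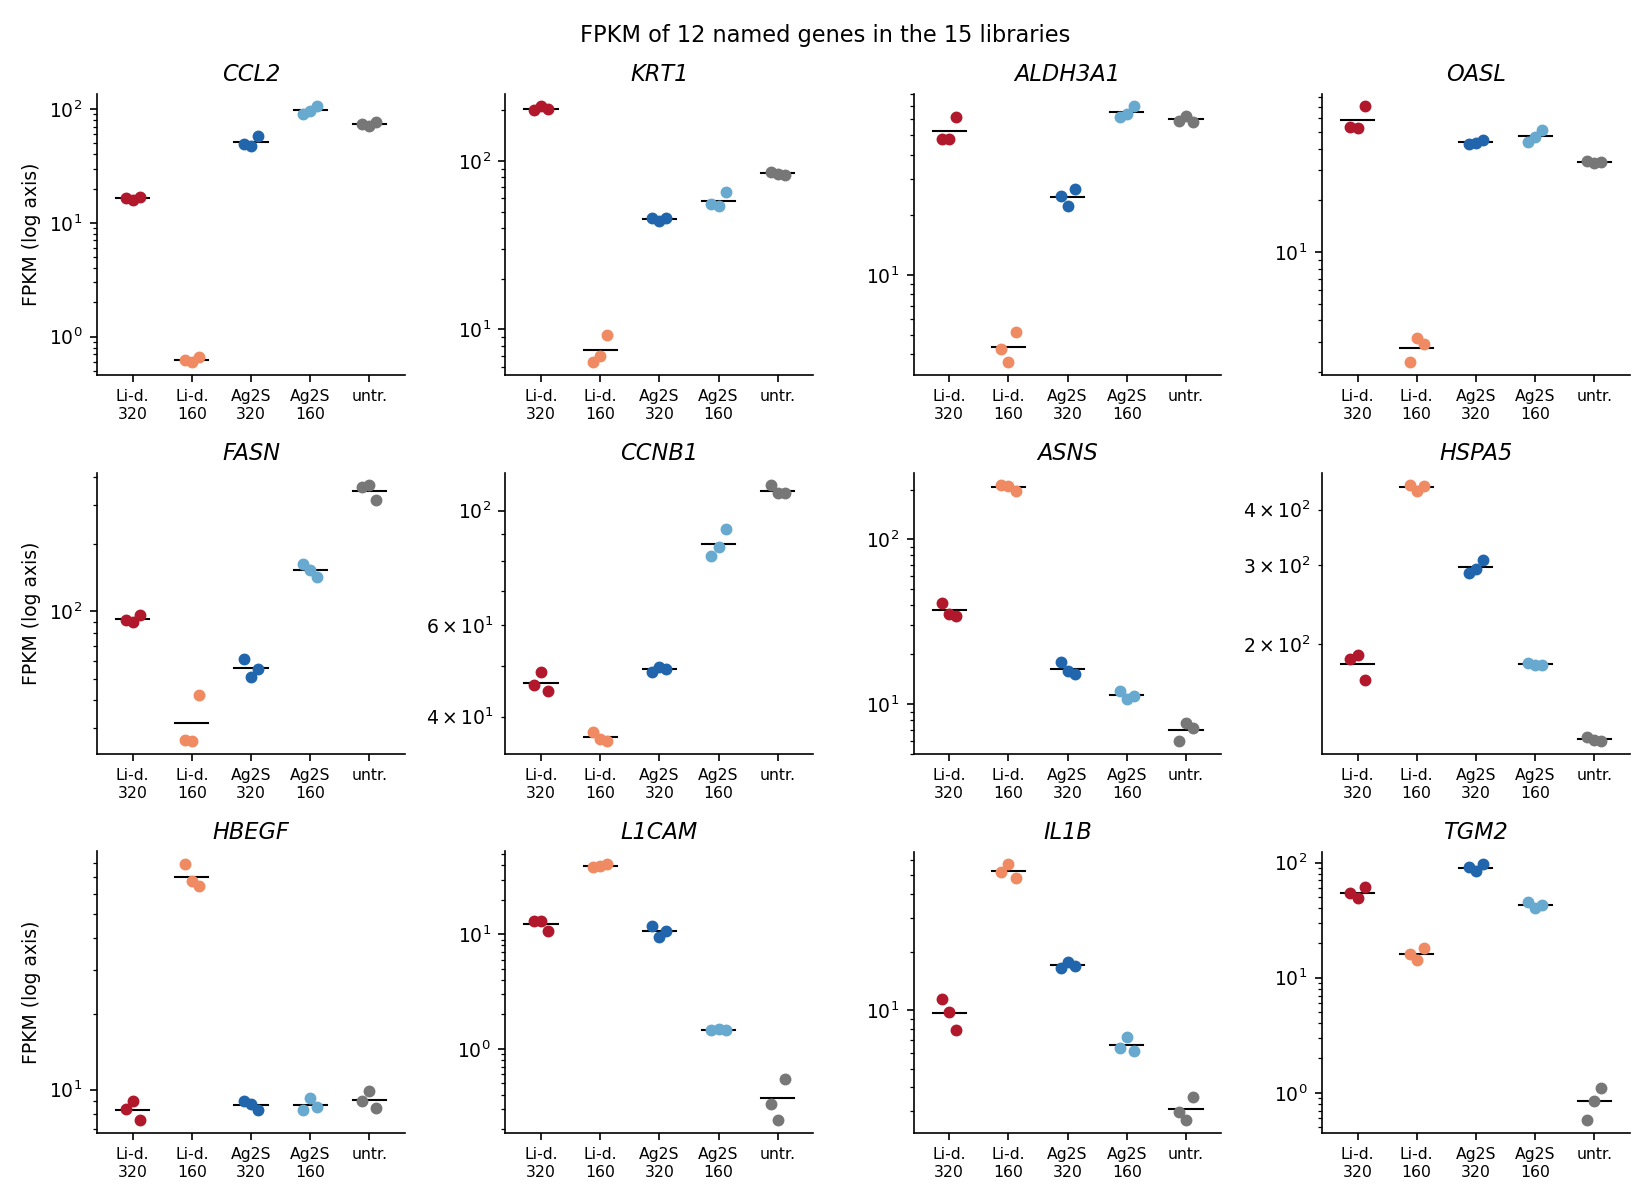
FPKM on log axes of 12 named genes in each of the 15 libraries, in the order Li-doped Ag2S NPs at 320 and 160 μg/mL, undoped Ag2S NPs at 320 and 160 μg/mL, and untreated cells. Points are libraries and bars are group means. In every panel but that of TGM2 the Li-doped group at 160 μg/mL holds the lowest or the highest mean of all 5 groups.

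Genes of the amino acid response had the contrasts farthest below 0 of any list. Of 42 tested targets of ATF4, 29 (69.0%) had a contrast below 0 and 3 (7.14%) above 0, against 18.2% and 18.4% of all genes. These 2 shares of all genes apply beside the counts of every list below. The median of the ATF4 targets was -1.60 against -0.05 over all genes. Their median dose effect was -1.44 with Li-doped and 0.06 with undoped Ag2S NPs. Against untreated cells the median level of the list was 0.42 higher with Li-doped Ag2S NPs at 320 μg/mL and 1.68 higher with Li-doped Ag2S NPs at 160 μg/mL, but -0.05 and -0.07 with undoped Ag2S NPs at 320 and 160 μg/mL.

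ASNS, asparagine synthetase (chromosome 7, 97852118 to 97872542, minus strand of GRCh38), had 41.3, 35.4 and 34.4 FPKM with Li-doped Ag2S NPs at 320 μg/mL, against 213, 209.6 and 197 FPKM at 160 μg/mL. With undoped Ag2S NPs it had 17.9, 15.8 and 15.3 FPKM at 320 μg/mL, against 12, 10.8 and 11.3 FPKM at 160 μg/mL, and untreated cells had 5.97, 7.70 and 7.20 FPKM. The groups do not overlap, and the order of the doses is turned round between the particles. Its dose effect was -2.48 with Li-doped and 0.52 with undoped particles, giving a contrast of -3.00 (SE 0.13, limma adjusted p = 4.06e-09). DDIT3, which encodes the stress factor CHOP, had 31.9, 31.7 and 30.2 FPKM with Li-doped Ag2S NPs at 320 μg/mL, against 179, 177 and 144 FPKM at 160 μg/mL. Undoped particles gave 17.8, 20.2 and 21.6 FPKM at 320 μg/mL, against 16, 17.9 and 16 FPKM at 160 μg/mL, and untreated cells had 30.7, 34.9 and 32.2 FPKM. The Li-doped libraries at 320 μg/mL thus lay close to untreated cells and those at 160 μg/mL far above them (contrast -2.65, SE 0.14). DDIT3 overlaps MARS on the other strand, and the library kit does not mark strand, so their reads cannot be told apart there.

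Other enzymes and carriers of the list had the same shape. SLC7A5, a carrier of large neutral amino acids, averaged 418 ± 12.9 FPKM with Li-doped Ag2S NPs at 320 μg/mL, against 1334 ± 119 FPKM at 160 μg/mL (SD, n = 3), and 458 ± 5.72 FPKM with undoped Ag2S NPs at 320 μg/mL, against 322 ± 8.19 FPKM at 160 μg/mL. Its contrast was -2.18, with opposite dose effects. PSAT1, an enzyme of serine synthesis, averaged 87.5 ± 16.2 FPKM at 320 and 408 ± 4.27 FPKM at 160 μg/mL of Li-doped particles, and 29.7 ± 1.54 FPKM at 320 and 31.5 ± 1.22 FPKM at 160 μg/mL of undoped particles (contrast -2.15). Of 17 serine and one-carbon enzymes, 8 (47.1%) were below 0 and 4 (23.5%) above 0, against 18.2% and 18.4% of all genes. MTHFD2, the mitochondrial folate enzyme, had a contrast of -1.95, whereas SHMT1, its cytosolic neighbour in the pathway, had one of 1.78 and rose with Li-doped and fell with undoped dose. Of 36 tRNA synthetases, which load amino acids onto tRNA, 17 (47.2%) were below 0 and 4 (11.1%) above 0 (median -0.34). IARS (-2.18), GARS (-1.80) and AARS (-1.66) were among the 4 with the smallest p-values, and for all of them the undoped dose effect missed the threshold (0.16, 0.14 and -0.07).

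The promoter of ASNS holds the element through which ATF4 is known to act, written here as TGATGNAA on either strand. The stretch is shown because ASNS had the smallest p-value of the list, and its capitals mark the match (RefSeq, GRCh38.p14, 7:97872422-97872501, minus strand, bases -93 to -14 from the start).
ASNS: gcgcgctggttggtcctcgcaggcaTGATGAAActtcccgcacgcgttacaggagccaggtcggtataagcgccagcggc
This motif occurred in 9 of the 36 list members with a promoter in the RefSeq table, in 7 of the 26 called below 0, and in 3.67% of all 27305 promoters of that length. Among promoters of the genes tested, the set the list members belong to, it occurred in 1.63% (154 of 9466). A match is a description of the sequence only.

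Of 28 genes of endoplasmic reticulum stress and its chaperones, 23 (82.1%) had a contrast below 0 and 0 above 0 (median -0.96). Of the 28, 10 had opposite dose effects, falling with dose under Li-doped and rising under undoped particles, while 11 passed for dose with Li-doped particles alone. HSPA5, the main chaperone of that compartment (chromosome 9, 125234853 to 125241330, minus strand of GRCh38), had 185, 189 and 166 FPKM with Li-doped Ag2S NPs at 320 μg/mL, against 453, 441 and 452 FPKM at 160 μg/mL. Under undoped particles it had 288, 295 and 309 FPKM at 320 μg/mL, against 181, 179.6 and 179 FPKM at 160 μg/mL, with 124, 122 and 121 FPKM in untreated cells. So the undoped group at 320 and the Li-doped group at 160 μg/mL were the high ones, and the remaining treated groups overlapped. The dose effects were -1.32 and 0.72 and the contrast -2.04 (SE 0.09, limma adjusted p = 7.28e-09). XBP1, a transcription factor of the unfolded protein response, averaged 63.2 ± 1.62 FPKM at 320 and 128 ± 3.29 FPKM at 160 μg/mL of Li-doped particles, and 75 ± 4.46 FPKM at 320 and 51.8 ± 6.21 FPKM at 160 μg/mL of undoped particles (SD, n = 3). Its contrast was -1.55. CREB3L2, a membrane-bound factor of the same compartment, had a contrast of -2.55 with dose effects of -1.72 and 0.82.

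Both HSPA5 and XBP1 carry the endoplasmic reticulum stress response element close to their start, spelled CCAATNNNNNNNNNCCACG on either strand. The lines below, read from RefSeq (GRCh38.p14), are shown because both genes had opposite dose effects, and capitals mark the element. HSPA5 is 9:125241355-125241434 and XBP1 is 22:28800567-28800646, each on the minus strand.
HSPA5: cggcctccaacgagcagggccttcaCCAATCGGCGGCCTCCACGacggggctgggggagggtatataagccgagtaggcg
XBP1: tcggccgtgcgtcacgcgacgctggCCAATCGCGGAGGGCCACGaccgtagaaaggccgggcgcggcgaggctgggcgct
The element was present in 7 of 26 list members with a promoter, in 5 of the 22 called below 0, and in 0.08% of all promoters (22 of 27305). Among promoters of the genes tested, the set the list members belong to, it was present in 0.15% (14 of 9466).

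Of 38 NRF2 targets and antioxidant enzymes, 18 (47.4%) were below 0 and 11 (28.9%) above 0 (median -0.24), against 18.2% and 18.4% of all genes. SRXN1, sulfiredoxin, had 55.2, 54.2 and 51.6 FPKM with Li-doped Ag2S NPs at 320 μg/mL, against 285, 284 and 266 FPKM at 160 μg/mL. With undoped particles it had 69.2, 69.1 and 70.7 FPKM at 320 μg/mL, against 47.7, 47.8 and 52.6 FPKM at 160 μg/mL, and untreated cells had 34.1, 34.5 and 33.3 FPKM. The Li-doped libraries at 160 μg/mL lay above all others, which ran from 33.3 to 70.7 FPKM. The contrast was -2.87 (SE 0.09, limma adjusted p = 2.71e-10), and the dose effects were opposite. TXNRD1, thioredoxin reductase, had a contrast of -2.05 and OSGIN1, an oxidative stress-induced growth inhibitor, one of -2.15. AKR1C2, an aldo-keto reductase, was above 0, with 897 ± 80.9 FPKM at 320 and 651 ± 42.8 FPKM at 160 μg/mL of Li-doped particles, and 400.1 ± 4.34 FPKM at 320 and 794 ± 59.1 FPKM at 160 μg/mL of undoped particles (SD, n = 3). Its contrast was 1.45, although reads of the AKR1C genes, which are close copies of each other, may be split between them. Of 29 heat shock and cytosolic chaperone genes, 10 (34.5%) were below and 2 (6.9%) above 0, against 18.2% and 18.4% of all genes. HSPA8, of this list, was at -1.04. Metallothioneins, the metal-binding proteins, had 1 member above and 1 below 0 of 6 tested (16.7% each), near the shares of all genes, and they too are near-identical copies.

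Of 28 EGFR ligands and ERK output genes, 22 (78.6%) had a contrast below 0 and 2 (7.14%) above 0, with a median of -1.26. HBEGF, a heparin-binding ligand of EGFR, had 8.36, 9.0 and 7.58 FPKM with Li-doped Ag2S NPs at 320 μg/mL, against 78.9, 67.8 and 64.4 FPKM at 160 μg/mL. Undoped particles gave 9.05, 8.77 and 8.32 FPKM at 320 μg/mL, against 8.30, 9.24 and 8.55 FPKM at 160 μg/mL, and untreated cells had 9.02, 9.86 and 8.43 FPKM. All groups but the Li-doped one at 160 μg/mL overlapped (contrast -3.07, SE 0.15, limma adjusted p = 1.11e-08). The ligand AREG had 39.7, 35.6 and 33.9 FPKM at 320 μg/mL of Li-doped particles, against 201, 173 and 143 FPKM at 160 μg/mL, and 26.9, 25.8 and 31.2 FPKM at 320 μg/mL of undoped particles, against 13.8, 16.3 and 15.8 FPKM at 160 μg/mL. Untreated cells had 3.86, 4.57 and 4.50 FPKM. Here all treated libraries lay above the untreated ones, and dose lowered AREG 4.69-fold under Li-doped and raised it 1.82-fold under undoped particles. FOSL1, an AP-1 subunit, had a contrast of -2.36 with an undoped dose effect of 0.02 (adjusted p = 0.949), and IER3, an immediate early gene, had one of -2.12 with opposite dose effects.

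MYC, a transcription factor that drives growth, and the genes that build ribosomes lay on the same side. MYC averaged 33.3 ± 2.65 FPKM at 320 and 113 ± 10.8 FPKM at 160 μg/mL of Li-doped particles, and 29.1 ± 2.31 FPKM at 320 and 25.8 ± 2.68 FPKM at 160 μg/mL of undoped particles (SD, n = 3), with a contrast of -1.93. Of 37 ribosome biogenesis genes, 25 (67.6%) were below and 1 (2.7%) above 0 (median -0.58). NOP58 (-1.57) and NOP56 (-1.50), core proteins of small nucleolar particles, and GNL3 (-1.71), nucleostemin, were among them. By comparison, 3 of 76 cytosolic ribosomal protein genes passed, 1 above and 2 below 0, where 36.5% of all genes did. The genes below 0 were RPL5 (-0.52) and RPL10A (-0.34), and RPL10A missed the threshold under 10 alternatives, 8 of which left out 1 library (adjusted p 0.0742 to 0.1). With library weights 15 of the 76 were below and 1 above 0, and 5973 of the 11920 genes were called. Ribosomal protein genes have many processed copies in the genome, which can take part of their reads.

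Genes of glycolysis and hypoxia were below 0 in 21 (61.8%) and above 0 in 2 (5.88%) of 34 tested (median -0.61). Of the 34, 9 had opposite dose effects. EGLN3, an oxygen-sensing prolyl hydroxylase, had 2.12, 3.07 and 2.66 FPKM with Li-doped Ag2S NPs at 320 μg/mL, against 14.9, 17.7 and 15.6 FPKM at 160 μg/mL. With undoped particles the values were 4.79, 4.03 and 3.88 FPKM at 320 μg/mL, against 1.24, 2.05 and 1.61 FPKM at 160 μg/mL, and 2.98, 2.33 and 2.77 FPKM in untreated cells. So the 160 μg/mL group was the high one with Li-doped and the low one with undoped particles, without overlap between doses (contrast -3.93, SE 0.27). NDRG1, a hypoxia-induced gene, averaged 439 ± 9.85 FPKM at 320 and 975 ± 40.2 FPKM at 160 μg/mL of Li-doped particles, and 408 ± 18.6 FPKM at 320 and 251 ± 13.5 FPKM at 160 μg/mL of undoped particles (SD, n = 3). PFKP, the platelet form of phosphofructokinase, had a contrast of -1.38 and opposite dose effects. SLC2A3, the glucose transporter GLUT3, had 1.59, 0.960 and 0.530 FPKM with Li-doped Ag2S NPs at 320 μg/mL, against 15.8, 12.1 and 12.4 FPKM at 160 μg/mL. It stayed under 1 FPKM in every undoped and untreated library (contrast -4.34). EGLN3 overlaps SPTSSA on the same strand in the annotation.

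Both interleukin 1 genes fell with Li-doped and rose with undoped dose. IL1B had 11.4, 9.84 and 7.95 FPKM with Li-doped Ag2S NPs at 320 μg/mL, against 51.9, 57.1 and 48.4 FPKM at 160 μg/mL. It had 16.6, 17.9 and 16.9 FPKM with Ag2S NPs at 320 μg/mL, against 6.39, 7.25 and 6.2 FPKM at 160 μg/mL, and 2.98, 2.71 and 3.57 FPKM in untreated cells. No groups overlapped, and the lowest treated group was the undoped one at 160 μg/mL. The contrast was -3.79 (SE 0.18, limma adjusted p = 9.18e-09). IL1A, its sister alarmin, had a contrast of -3.61 with dose effects of -2.44 and 1.17. Over the list of 27 cytokines, chemokines and NF-kB response genes, 10 (37.0%) were below and 4 (14.8%) above 0 (median -0.21). Over all genes 18.2% were below and 18.4% above 0. CCL2, a monocyte-attracting chemokine of the list, was at the far end above 0.

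Genes of the matrix and its turnover are those the study set out to follow through TGF-β. The list of 31 TGF-β targets had 12 genes (38.7%) below and 7 (22.6%) above 0, against 18.2% and 18.4% of all genes. Its median was -0.18, but -0.03 without replicate 15 and 0.07 with library weights. TGFB1 itself had 68.1, 57.5 and 67.2 FPKM with Li-doped Ag2S NPs at 320 μg/mL, against 77, 64 and 85.7 FPKM at 160 μg/mL, and 49.6, 50.3 and 53.9 FPKM with undoped Ag2S NPs at 320 μg/mL, against 44.2, 51.6 and 46.9 FPKM at 160 μg/mL. Its doses overlapped within each particle, and its contrast of -0.34 (SE 0.15) missed the threshold at an adjusted p of 0.1. Without replicate 11, of the Li-doped group at 160 μg/mL, it passed (-0.45, limma adjusted p = 0.0241). COL1A1 had 34.6, 40.2 and 33.1 FPKM at 320 μg/mL of Li-doped particles, against 17.3, 21 and 20.6 FPKM at 160 μg/mL, and 42.7, 38.6 and 40.2 FPKM at 320 μg/mL of undoped particles, against 24.7, 23.4 and 17.3 FPKM at 160 μg/mL. It rose with dose under both particles, by 0.87 and 0.91 on the log2 scale, and the contrast was -0.04 (SE 0.18, adjusted p = 0.895). TIMP1, an inhibitor of metalloproteinases, had 171, 149 and 191 FPKM at 320 μg/mL of Li-doped particles, against 322, 307 and 332 FPKM at 160 μg/mL, and 110.5, 128 and 125 FPKM at 320 μg/mL of undoped particles, against 103, 113 and 121 FPKM at 160 μg/mL. Only its Li-doped dose effect passed, with a contrast of -1.03 (SE 0.13, limma adjusted p = 6.84e-05). TGFB1 and TIMP1 overlap genes on the opposite strand in the annotation. Of 15 collagen chains, 3 were below and 1 above 0, where 36.5% of all genes were called, and the median dose effect was 0.42 under each particle. With library weights 3 chains were below and 6 above 0, and 5973 of the 11920 genes were called. Of 16 enzymes and chaperones that finish collagen, 7 (43.8%) were below and 4 (25.0%) above 0. P4HA1, a prolyl hydroxylase subunit, was below 0 (-1.51) and SERPINH1, a collagen chaperone, above 0 (0.95), both with opposite dose effects.

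A laminin chain and matricellular proteins had opposite dose effects. LAMA3, a chain of laminin 332, had 258, 264 and 208 FPKM with Li-doped Ag2S NPs at 320 μg/mL, against 709, 678 and 660.3 FPKM at 160 μg/mL. With undoped particles it had 304, 296 and 276 FPKM at 320 μg/mL, against 187, 171 and 164 FPKM at 160 μg/mL, and untreated cells had 59.5, 58.5 and 61.8 FPKM. All treated groups were separate and above untreated cells (contrast -2.24, SE 0.13, limma adjusted p = 5.51e-08). The integrin chain ITGB1 had a contrast of -1.26, whereas ITGB6, a chain of a TGF-β-activating integrin, had one of 1.30. THBS1, thrombospondin 1, had 50.4, 43.6 and 35.3 FPKM at 320 μg/mL of Li-doped particles, against 166, 179 and 162 FPKM at 160 μg/mL, and 52.5, 47 and 42.7 FPKM at 320 μg/mL of undoped particles, against 18.5, 17.8 and 10.8 FPKM at 160 μg/mL. At 320 μg/mL the particles overlapped and at 160 μg/mL they were far apart, giving a contrast of -3.61 (SE 0.25). TNC, tenascin C, had 33.2 ± 2.56 FPKM at 320 and 62.7 ± 3.88 FPKM at 160 μg/mL of Li-doped particles, and 68.4 ± 3.87 FPKM at 320 and 18.1 ± 3.83 FPKM at 160 μg/mL of undoped particles (SD, n = 3), with a contrast of -2.85.

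Of 18 metalloproteinases and their inhibitors, 6 (33.3%) were above and 10 (55.6%) below 0, against 18.4% and 18.2% of all genes. Of 9 genes of the plasminogen system, 1 (11.1%) was above and 5 (55.6%) below 0. SERPINE2, protease nexin 1, had 259.6, 248 and 245 FPKM with Li-doped Ag2S NPs at 320 μg/mL, against 419, 414 and 433 FPKM at 160 μg/mL. It had 298, 288 and 312 FPKM with undoped particles at 320 μg/mL, against 115, 116 and 117 FPKM at 160 μg/mL, and 19.6, 17.7 and 17.8 FPKM in untreated cells. All groups were separate, with the undoped group at 160 μg/mL the lowest of the treated ones (contrast -2.11, SE 0.09, limma adjusted p = 2.24e-09). PLAUR, the urokinase receptor (-1.95), and the inhibitors TIMP2 (-1.90) and TIMP3 (-1.99) also fell with Li-doped and rose with undoped dose. MMP13, collagenase 3, was above 0, with 241 ± 13.7 FPKM at 320 and 54 ± 2.29 FPKM at 160 μg/mL of Li-doped particles, and 543 ± 15.9 FPKM at 320 and 484 ± 10.7 FPKM at 160 μg/mL of undoped particles (SD, n = 3; contrast 1.99). MMP10, stromelysin 2, changed with undoped dose (1.15) and had a Li-doped dose effect of 0.12 (adjusted p = 0.148), with a contrast of -1.03. COL5A1 had the same shape (0.85 undoped, 0.09 Li-doped, contrast -0.75). Of 25 actin, YAP and mesenchymal genes, 11 (44.0%) were below and 0 above 0, against 18.2% and 18.4% of all genes. Those below 0 included ACTN1 (-0.82), TPM4 (-0.88) and ACTB (-0.89), a gene often used to scale other measurements.

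Interferon-stimulated genes had contrasts above 0 in 35 of 44 tested (79.5%, against 18.4% of all genes) and below 0 in 0, with a median of 1.30. Their median dose effect was 0.93 with Li-doped and -0.29 with undoped Ag2S NPs, and their median level against untreated cells was -1.21 with Li-doped particles at 320 μg/mL, -2.27 with Li-doped at 160 μg/mL, -1.05 with undoped at 320 μg/mL and -0.74 with undoped at 160 μg/mL. Li-doped Ag2S NPs at 160 μg/mL held the highest or lowest mean in 43 of the 44. OASL, an antiviral member of the oligoadenylate synthetase family, had 53.2, 52.8 and 70.6 FPKM with Li-doped Ag2S NPs at 320 μg/mL, against 2.29, 3.14 and 2.91 FPKM at 160 μg/mL. With undoped particles it had 42.8, 43.5 and 44.7 FPKM at 320 μg/mL, against 43.9, 47 and 51.5 FPKM at 160 μg/mL, and untreated cells had 34.1, 33.1 and 33.6 FPKM. The Li-doped group at 160 μg/mL lay far below everything else (contrast 4.47, SE 0.19, limma adjusted p = 2.47e-09). IFIT3, which binds signalling partners of the RNA sensors, had 33.6, 34.6 and 30.5 FPKM at 320 μg/mL of Li-doped particles, against 3.58, 4.47 and 3.95 FPKM at 160 μg/mL, and 32.5, 31.6 and 32.6 FPKM at 320 μg/mL of undoped particles, against 45.4, 41.6 and 43.4 FPKM at 160 μg/mL. At 320 μg/mL the particles overlapped, and the contrast was 3.44 (SE 0.13) with opposite dose effects. IFIT1 (2.82) and IFIT2 (2.79), which bind viral RNA or its messengers, followed it. The 3 IFIT genes overlap LIPA on the other strand in the annotation.

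The interferon-stimulated response element is the sequence bound by the factors that switch these genes on, and its core was searched as GAAANNGAAA on either strand. The stretches below are shown for the 2 IFIT genes with the smallest p-values that have a promoter in the RefSeq table, with both matches of each in capitals (GRCh38.p14, plus strand, IFIT1 10:89392482-89392561 and IFIT3 10:89327816-89327895).
IFIT1: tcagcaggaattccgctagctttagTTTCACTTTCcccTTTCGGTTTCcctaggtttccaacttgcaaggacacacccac
IFIT3: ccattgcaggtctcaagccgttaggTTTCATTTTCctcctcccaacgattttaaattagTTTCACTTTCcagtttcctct
Of the 36 list members with a promoter, 23 held the core, as did 19 of the 28 called above 0, against 3.65% of all 27305 promoters. Among promoters of the genes tested the share was 2.76% (261 of 9466).

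Genes of antigen presentation lay on the same side. Of 22 genes of MHC molecules and antigen processing, 18 (81.8%) were above and 0 below 0 (median 0.74). PSMB8, a subunit of the immunoproteasome that overlaps PSMB9 on the other strand, averaged 79.3 ± 9.37 FPKM at 320 and 36.6 ± 2.28 FPKM at 160 μg/mL of Li-doped particles, and 65.8 ± 4.78 FPKM at 320 and 86.4 ± 11.6 FPKM at 160 μg/mL of undoped particles (SD, n = 3), with a contrast of 1.5. HLA-DRA, an MHC class II chain, had one of 1.26, CD74, the invariant chain, one of 1.04, and TAP1, a peptide transporter, one of 0.76. Of 33 constitutive and accessory proteasome genes, a separate list, 13 were above (39.4%) and 1 below 0 (3.03%), with a median of 0.15. Over all genes 18.4% were above and 18.2% below 0, and 36.5% were called in either direction.

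Many lipid synthesis genes rose with Li-doped dose and fell with undoped dose. Of 28 genes of cholesterol synthesis and uptake, 18 (64.3%) were above and 1 (3.57%) below 0 (median 0.99), against 18.4% and 18.2% of all genes. Of the 28, 14 had opposite dose effects, against 5.65% of all genes. The median dose effect was 0.50 with Li-doped and -0.48 with undoped Ag2S NPs. INSIG1, which holds the SREBP system back when sterols are plentiful, had 81.7, 81.5 and 75.6 FPKM with Li-doped Ag2S NPs at 320 μg/mL, against 29.5, 37.1 and 32.3 FPKM at 160 μg/mL. Undoped particles gave 53.2, 51.8 and 51.6 FPKM at 320 μg/mL, against 88.6, 93.5 and 96.1 FPKM at 160 μg/mL, and untreated cells had 156, 154 and 154 FPKM. No groups overlapped, and untreated cells were the highest (contrast 2.1, SE 0.12, limma adjusted p = 4.47e-08). MVK, mevalonate kinase (1.95), and EBP, a sterol isomerase (1.49), had opposite dose effects in the same directions, although MVK overlaps MMAB on the other strand.

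FASN, fatty acid synthase, had 91.6, 89.3 and 96.9 FPKM with Li-doped Ag2S NPs at 320 μg/mL, against 26.5, 26.3 and 42.2 FPKM at 160 μg/mL. Undoped Ag2S NPs gave 61.4, 50.8 and 55.1 FPKM at 320 μg/mL, against 163, 153 and 143 FPKM at 160 μg/mL, and untreated cells had 361, 367 and 315 FPKM. No treated groups overlapped, and dose raised FASN 2.99-fold under Li-doped and lowered it 2.75-fold under undoped particles. SCD, the desaturase that makes oleate (2.51), ACSL1, which activates fatty acids (2.29), and SREBF1, the gene of SREBP1 (1.89), were also above 0. Of 23 fatty acid genes, 12 were above and 3 below 0, and 10 had opposite dose effects.

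Genes of dividing cells were above 0 too. Of 37 mitosis genes, 34 (91.9%) had a contrast above 0 and 0 below 0 (median 0.97). Their median dose effect was 0.29 under Li-doped and -0.65 under undoped particles. Every one of the 37 was lower than in untreated cells in all 4 treated groups. CCNB1, cyclin B1, had 46, 48.7 and 44.7 FPKM with Li-doped Ag2S NPs at 320 μg/mL, against 37.3, 36.2 and 35.9 FPKM at 160 μg/mL. It had 48.8, 49.8 and 49.4 FPKM with undoped particles at 320 μg/mL, against 81.9, 85 and 92.3 FPKM at 160 μg/mL, and 112, 108 and 108 FPKM in untreated cells. The undoped group at 160 μg/mL was therefore nearest to untreated cells, and the other treated groups lay between 35.9 and 49.8 FPKM (contrast 1.15, SE 0.10, limma adjusted p = 1.57e-06). CCNB2 (1.43), PLK1, a mitotic kinase (1.16), and AURKB, a kinase of the chromosome passenger complex (1.20), had opposite dose effects as well. Of the 34 called genes, 15 had opposite effects, 17 passed for dose with undoped particles alone and 2 with Li-doped particles alone.

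Replication genes were above 0 in 22 (56.4%) and below 0 in 0 of 39 tested (median 0.67), against 18.4% and 18.2% of all genes. MCM5, a subunit of the replicative helicase, averaged 15.3 ± 1.84 FPKM at 320 and 4.98 ± 0.866 FPKM at 160 μg/mL of Li-doped particles, and 10.7 ± 0.523 FPKM at 320 and 17.3 ± 1.92 FPKM at 160 μg/mL of undoped particles (SD, n = 3), with a contrast of 2.29. TK1, thymidine kinase, had one of 1.68. Histone genes had the largest median of the lists with more than 2 genes tested, 2.24 over 11 genes, with 10 (90.9%) above and 0 below 0. HIST1H2BD had 25.3, 31.1 and 38.1 FPKM with Li-doped Ag2S NPs at 320 μg/mL, against 7.78, 10.7 and 6.84 FPKM at 160 μg/mL, and 16.4, 17.3 and 19.9 FPKM with undoped particles at 320 μg/mL, against 37.1, 47.8 and 51.3 FPKM at 160 μg/mL. Its groups did not overlap between doses (contrast 3.23, SE 0.25). HIST1H2BK (2.26), HIST1H1C (2.24) and HIST1H2AC (1.87) also had opposite dose effects. Histone genes are close copies, many of their messages lack a poly(A) tail, and the reads of single members may be shared.

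Of 46 nuclear genes of the respiratory chain, 32 (69.6%) were above and 1 (2.17%) below 0 (median 0.66). Of the 46, 29 passed for dose with Li-doped particles alone. NDUFB5, a subunit of complex I, averaged 119 ± 4.22 FPKM at 320 and 79.4 ± 3.38 FPKM at 160 μg/mL of Li-doped particles, and 119.7 ± 1.74 FPKM at 320 and 162 ± 18.7 FPKM at 160 μg/mL of undoped particles (SD, n = 3), with a contrast of 1.02. NDUFS3 (1.03), of the same complex, had opposite dose effects too. UCP2, an uncoupling protein of the mitochondrial inner membrane, had 21.8, 16.4 and 20.5 FPKM at 320 μg/mL of Li-doped particles, against 0.990, 2.16 and 2.30 FPKM at 160 μg/mL, and 6.79, 5.80 and 7.82 FPKM at 320 μg/mL of undoped particles, against 15.2, 17.2 and 13 FPKM at 160 μg/mL. It was 10.8-fold higher at 320 than at 160 μg/mL of Li-doped particles, with a contrast of 4.57 (SE 0.35).

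**Figure D4:**
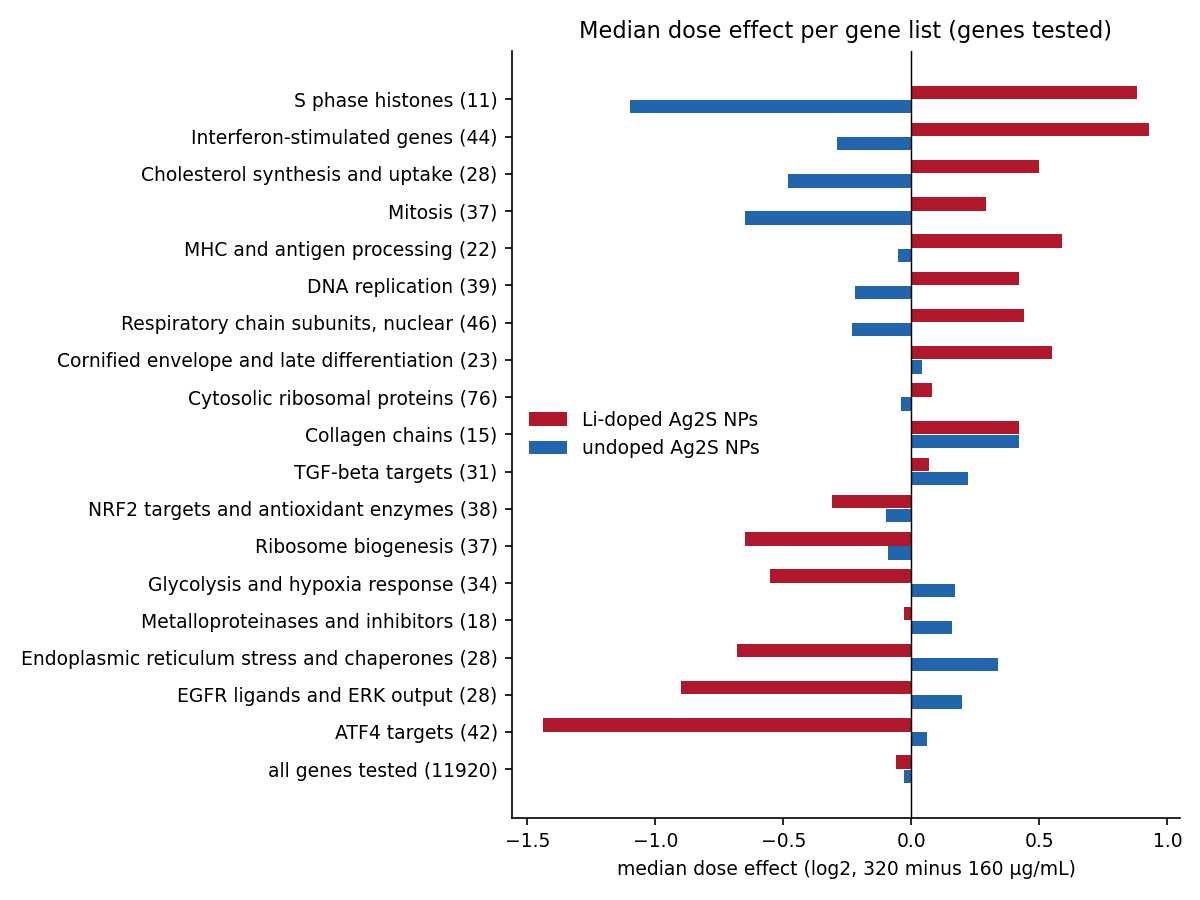
Bars give the median dose effect (log2, 320 minus 160 μg/mL) of the tested genes of 18 lists and of all 11920 genes, in red with Li-doped and in blue with undoped Ag2S NPs, with the number of genes in brackets. The red bars run from 0.93 for interferon-stimulated genes to -1.44 for ATF4 targets, and for 13 of the lists the blue bar points the other way.

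Keratinocyte genes differed member by member. KRT1, an early differentiation keratin (chromosome 12, 52674736 to 52680407, minus strand of GRCh38), had 201, 212 and 204 FPKM with Li-doped Ag2S NPs at 320 μg/mL, against 6.41, 6.92 and 9.22 FPKM at 160 μg/mL. With undoped particles it had 46.2, 44.3 and 46.1 FPKM at 320 μg/mL, against 55.3, 54.1 and 65.5 FPKM at 160 μg/mL, and untreated cells had 86.2, 84.3 and 83.2 FPKM. The Li-doped groups thus lay on either side of all others, 27.3-fold apart (contrast 5.12, SE 0.17, limma adjusted p = 2.71e-10). Of 17 keratins, 7 were above and 7 below 0 (41.2% each), against 18.4% and 18.2% of all genes. The keratins named here were all above 0, and those below 0 are not named. Besides KRT1 they were the basal keratins KRT5 (1.62), KRT14 (0.99) and KRT15 (2.85) and the mucosal keratin KRT13 (2.33). KRT14 shares long identical stretches with other type I keratins. KRT5 averaged 9662 ± 542 FPKM at 320 and 3195 ± 362 FPKM at 160 μg/mL of Li-doped particles, and 5228 ± 221 FPKM at 320 and 5307 ± 293 FPKM at 160 μg/mL of undoped particles (SD, n = 3).

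Of 23 genes of the cornified envelope and late differentiation, 12 (52.2%) were above and 5 (21.7%) below 0 (median 0.52). Over all genes 18.4% were above and 18.2% below 0. SPINK5, a skin protease inhibitor (2.15), KLK10, a kallikrein (1.49), and CERS3, a ceramide synthase of the barrier (1.46), were above, whereas ALOXE3, a lipoxygenase of the barrier, was below 0 with opposite dose effects (-3.37). SPRR2D had 0.310, 0.130 and 0.150 FPKM with Li-doped Ag2S NPs at 320 μg/mL, against 15.6, 12.3 and 11.7 FPKM at 160 μg/mL. It was listed at 0 in 1 of the 3 undoped libraries at 320 μg/mL, in 2 of 3 at 160 μg/mL and in all untreated libraries, so no fold is given. LCE1F, also a small envelope protein, had 4.64, 7.13 and 6.07 FPKM with Li-doped Ag2S NPs at 160 μg/mL, was listed at 0 in all undoped and untreated libraries, and had 0, 0.50 and 0 FPKM with Li-doped Ag2S NPs at 320 μg/mL. Both belong to families of close copies, and LCE1F missed the threshold with a pseudocount of 0.01. Of 13 S100 genes, 6 (46.2%) were above and 1 (7.69%) below 0, with S100A8 at 2.66, S100A7 at 2.64 and S100A9 at 1.72. Of 19 factors of epithelial identity, 4 were above and 4 below 0 (median -0.14), where 36.5% of all genes were called. SOX2 (2.37) and GATA3 (1.89) were above 0, and KLF4 (-1.04) and CDH1 (-0.78) below 0.

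The 15 genes named for the largest contrasts above 0 all had their lowest treated mean with Li-doped Ag2S NPs at 160 μg/mL. CCL2 (chromosome 17, 34255218 to 34257203, plus strand of GRCh38) had 16.4, 15.9 and 16.9 FPKM with Li-doped Ag2S NPs at 320 μg/mL, against 0.630, 0.600 and 0.660 FPKM at 160 μg/mL. Undoped particles gave 48.8, 47.6 and 58 FPKM at 320 μg/mL, against 90.4, 95.4 and 106 FPKM at 160 μg/mL, and untreated cells had 73.5, 71.1 and 76.5 FPKM. Both Li-doped groups lay below all undoped and untreated libraries, and dose raised CCL2 22.6-fold under Li-doped and lowered it 1.89-fold under undoped particles. Its contrast was 5.42 (SE 0.14, limma adjusted p = 6.65e-11). CCL7, a related chemokine, had 2.28, 2.40 and 5.32 FPKM at 320 μg/mL of Li-doped particles, against 0, 0.190 and 0 FPKM at 160 μg/mL, and 7.09, 6.68 and 6.27 FPKM at 320 μg/mL of undoped particles, against 10.8, 8.15 and 11.9 FPKM at 160 μg/mL (contrast 5.08, SE 0.56). ALDH3A1, an aldehyde dehydrogenase of epithelia, had 47.9, 47.8 and 61.7 FPKM at 320 μg/mL of Li-doped particles, against 4.26, 3.66 and 5.19 FPKM at 160 μg/mL, and 24.8, 22.1 and 27 FPKM at 320 μg/mL of undoped particles, against 61.6, 63.6 and 69.8 FPKM at 160 μg/mL. Opposite effects of 3.56 and -1.40 gave it a contrast of 4.96 (SE 0.19).

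SLURP2, a secreted Ly6 protein, had a contrast of 5.71 with 10.2, 8.63 and 12.9 FPKM at 320 μg/mL of Li-doped particles, against 0.420, 0.410 and 0.210 FPKM at 160 μg/mL, and it overlaps a read-through gene with LYNX1 on the same strand. AMTN, amelotin, had 7.96 ± 1.60 FPKM at 320 and 1.15 ± 0.607 FPKM at 160 μg/mL of Li-doped particles, and 9.93 ± 1.31 FPKM at 320 and 25.6 ± 1.63 FPKM at 160 μg/mL of undoped particles (SD, n = 3). C10orf99, a secreted peptide gene (3.94), PROC, the protein C precursor (3.28), and PINLYP, a phospholipase inhibitor (3.26), were also above 0, although PINLYP overlaps XRCC1 on the other strand. MT1DP, a metallothionein pseudogene, was listed at 0 in all 3 Li-doped libraries at 160 μg/mL and at 0 in 1 to 2 libraries of each group but the undoped one at 160 μg/mL, so its contrast of 7.60 (SE 2.32) rests on few libraries. It missed the threshold without replicate 8, 9 or 13 (limma adjusted p 0.0532 to 0.0554). The 14 tested Wnt feedback targets had 5 genes above and 4 below 0 (median 0.16), where 36.5% of all genes were called. APCDD1, an inhibitor of the Wnt pathway (2.84), and WNT4, a ligand (1.97), were above 0. MYC, of the same list, was below 0. Of 14 ID and BMP pathway genes, 4 (28.6%) were above and 1 (7.14%) below 0, against 18.4% and 18.2% of all genes. ID3 (2.12) and ID2 (1.61), inhibitors of DNA binding and targets of BMP signals, were above 0. Both were below their untreated level in every treated group. HEY1 (-1.68), of the same list, was below 0. Of 21 BCL2 family and TRAIL death genes, 4 were above and 5 below 0 (median -0.14), where 36.5% of all genes were called. TNFSF10, the death ligand TRAIL, had a contrast of 1.65 and TNFRSF10B, of the same list, one of -1.72. DDB2, a p53 target of DNA repair, had one of 1.67, while GADD45A, another p53 target, had one of -1.68.

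The 15 genes named for the largest contrasts below 0 all had their highest treated mean with Li-doped Ag2S NPs at 160 μg/mL. DHRS2, a short-chain dehydrogenase (chromosome 14, 23630115 to 23645639, plus strand of GRCh38), had 1.85, 1.51 and 1.05 FPKM with Li-doped Ag2S NPs at 320 μg/mL, against 19.3, 19.8 and 19.9 FPKM at 160 μg/mL. Undoped Ag2S NPs gave 4.77, 5.36 and 7.33 FPKM at 320 μg/mL, against 0.750, 0.980 and 1.08 FPKM at 160 μg/mL, and untreated cells had 0.450, 0.400 and 0.520 FPKM. Here the higher undoped dose and the lower Li-doped dose were the high groups (contrast -6.19, SE 0.31, limma adjusted p = 1.66e-08). GDF15, a stress-induced hormone, had 0.0900, 0.160 and 0.270 FPKM at 320 μg/mL of Li-doped particles, against 16.4, 10.1 and 10.8 FPKM at 160 μg/mL, and no more than 0.72 FPKM in any undoped or untreated library (contrast -5.82, SE 1.02). UPP1, uridine phosphorylase, was far more abundant, with 41, 38.2 and 43.5 FPKM at 320 μg/mL of Li-doped particles, against 610.4, 494 and 586 FPKM at 160 μg/mL, and 43.3, 48.9 and 52.2 FPKM at 320 μg/mL of undoped particles, against 31.3, 37.1 and 39.7 FPKM at 160 μg/mL. Its contrast was -4.20 (SE 0.15, limma adjusted p = 7.67e-10).

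L1CAM, a cell adhesion molecule best known from neurons, had 13, 13.1 and 10.8 FPKM with Li-doped Ag2S NPs at 320 μg/mL, against 38.8, 39.3 and 40.8 FPKM at 160 μg/mL. With undoped particles it had 11.7, 9.51 and 10.7 FPKM at 320 μg/mL, against 1.47, 1.5 and 1.46 FPKM at 160 μg/mL, and untreated cells had 0.330, 0.240 and 0.550 FPKM. It was 3.22-fold lower at the higher dose of Li-doped and 6.79-fold higher at the higher dose of undoped particles, the largest undoped dose effect of the opposite genes named. KIF21B, a kinesin (-4.39), TMEM52, a membrane protein (-4.43), FYN, a Src family kinase (-4.09), and MGLL, monoacylglycerol lipase (-4.07), likewise had opposite effects. CDH4, R-cadherin (-4.13), NEURL1, a ubiquitin ligase (-4.17), and PRR9, a proline-rich protein (-4.97), passed for dose with Li-doped particles alone. RPLP0P2, a pseudogene of a ribosomal protein, had a contrast of -5.76 and may take reads of its parent gene. PFN2, a profilin (-2.88), GJA3, a gap junction protein (-3.31), and IGFL1, an insulin-like growth factor family member (-3.12), had opposite dose effects that were large under both particles. CDH2, N-cadherin, and CDH1, E-cadherin, the main cadherin of epithelia, were both below 0 with opposite dose effects (-1.50 and -0.78).

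In 17 genes dose effects in the same direction differed in size. TGM2, tissue transglutaminase, had 54.3, 49.4 and 61.3 FPKM with Li-doped Ag2S NPs at 320 μg/mL, against 16, 14.3 and 18.2 FPKM at 160 μg/mL. It had 91, 84.4 and 96.8 FPKM with undoped particles at 320 μg/mL, against 45.8, 40.0 and 42.5 FPKM at 160 μg/mL, and 0.580, 0.840 and 1.11 FPKM in untreated cells. It rose with dose under both, 3.39-fold and 2.12-fold, and its contrast was 0.68 (SE 0.15, limma adjusted p = 0.0032), but in FPKM the undoped increase was the larger one. CTSV, a lysosomal protease (1.45 and 0.70), and BMF, a BH3-only protein (1.73 and 0.38), rose under both, COL5A3 rose more under undoped dose (0.35 and 1.49), and LCN2, lipocalin 2, fell under both (-2.07 and -0.43), with the Li-doped value first.

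**Figure D5:**
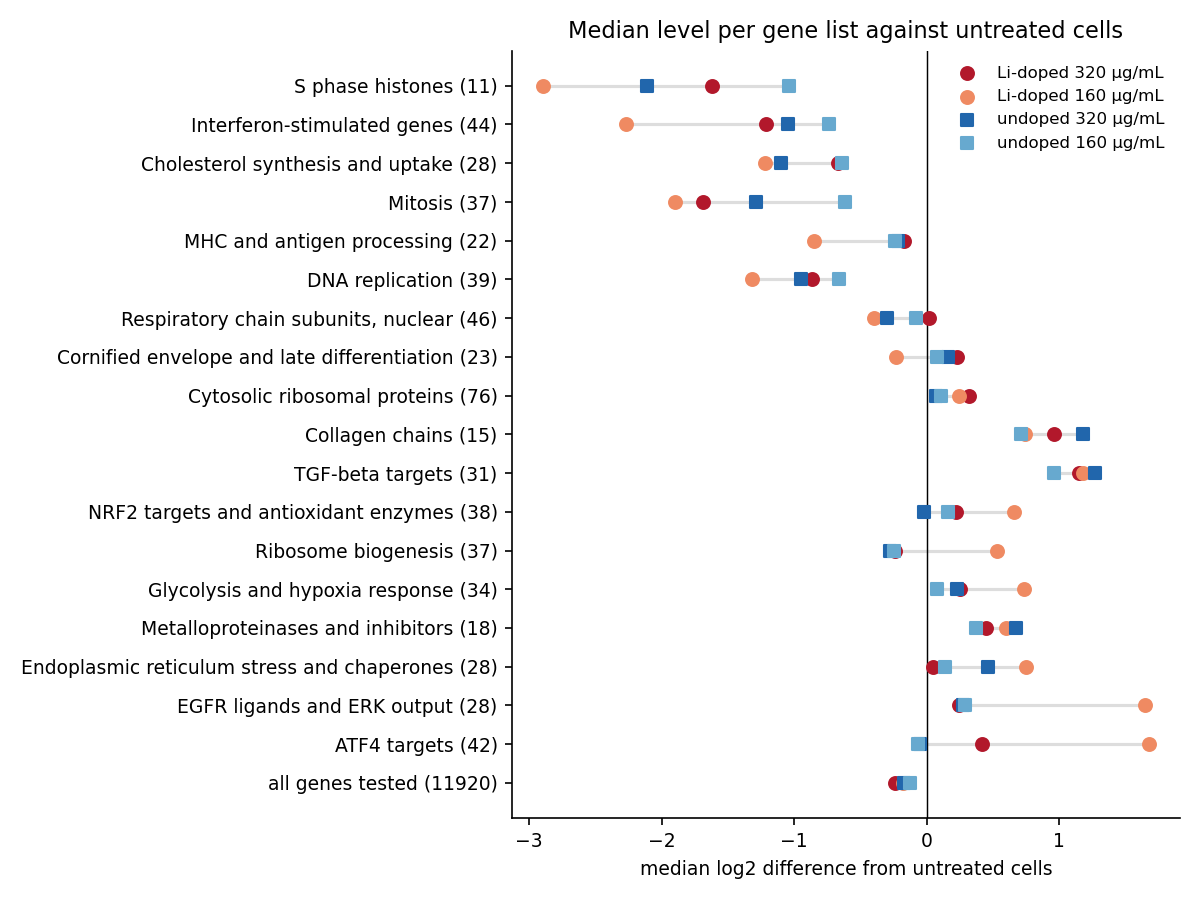
Each row is a gene list and each point the median log2 difference from untreated cells of its tested genes, red and orange circles for Li-doped and dark and light blue squares for undoped Ag2S NPs at 320 and 160 μg/mL. The orange circles farthest from 0 are those of histones (-2.90), interferon-stimulated genes (-2.27), mitosis (-1.9), ATF4 targets (1.68) and EGFR ligands and ERK output (1.65). The medians of collagen chains lie between 0.71 and 1.18.

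Lists with members in both directions or few called genes were as follows, where 18.4% of all genes were above and 18.2% below 0. Housekeeping genes had 5 above and 4 below 0 of 14. Genes of lysosomes and autophagy had 13 above and 10 below of 43, with NEU1, neuraminidase 1, at 1.02 and WIPI1, an autophagy protein, at -1.55. Junction genes had 8 above and 10 below of 26, and GJB5 (1.22) and GJB2 (-1.30), both connexins, lay on opposite sides. Retinoid and aryl hydrocarbon receptor genes had 5 above and 8 below of 18, with DHRS3 at 1.46 and ALDH1A3 at -1.21, enzymes that lower and raise retinoic acid. Notch genes had 2 in each direction of 15 (13.3% each), and p53 targets 8 above (34.8%) and 5 below (21.7%) of 23. Notch genes were thus under the shares of all genes, and the other lists counted here were over them in both directions. Markers of other cell types were few and weak: DCN, a fibroblast proteoglycan, was at most 3.34 FPKM in treated libraries, with a contrast of 4.69, and CD68, a lysosomal protein used as a macrophage marker, had a contrast of -1.87 with 10.1 ± 1.03 FPKM at 320 and 26.6 ± 1.31 FPKM at 160 μg/mL of Li-doped particles (SD, n = 3). The part of such cells in these contrasts was not tested.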

How the data were processed

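RNA-seq libraries of HaCaT cells were read as the FPKM values per gene that the authors deposited, 1 value per library. Per the labels and methods they had been aligned with TopHat and quantified by Cufflinks 2.1.1 and Cuffdiff, correcting for fragment bias and multiply mapped reads. The genome build is not given in the sources used here. All 17214 gene IDs in both joined tables occur in GENCODE 29 (GRCh38), which gave the coordinates. Untreated values are the same in both tables. Columns with the authors' group values, ratios and test results were not used, and 0 columns of library values lacked a sample.

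Values were taken as log2(FPKM + 0.1). The contrast was tested with limma 3.58.1 in R 4.3.3 (1 mean per group, trend, two-sided, Benjamini-Hochberg over 11920 genes), after a check on simulated data. Opposite genes passed an adjusted p of 0.05 for the contrast and for both dose effects, with opposite signs. Lists are described by counts and medians. Named genes passed the contrast, averaged at least 5 FPKM in the highest treated group and kept their sign with any library left out. The rule on the sign removed no gene, since all 4353 called genes met it. They were the 15 largest in each direction, the 12 opposite genes with the largest smaller dose effect and up to 4 called genes per list with the smallest p-values, besides TGFB1, TIMP1, COL1A1, TGM2 and cell type markers. The genes and lists were chosen with earlier results of these data known. Alternatives were other pseudocounts, filters, scaling, fits, library weights, the linear scale, a minimum contrast and each library left out. Some genes that met these rules are not reported here.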

Additional observations from a re-analysis of the deposited data

Results flagged for a closer look

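The test of the difference between both particles' dose effects picked out every result given here, and groups of 3 libraries were not tested for outlying samples. It picked out 4353 genes, 2189 above 0 and 2164 below 0, and 674 of them had opposite dose effects. Of the genes with the largest contrasts above 0, the values were 7.6 for MT1DP, 5.71 for SLURP2, 5.42 for CCL2, 5.12 for KRT1, 5.08 for CCL7, 4.96 for ALDH3A1, 4.57 for UCP2 and 4.47 for OASL. They were 4.18 for AMTN, 3.94 for C10orf99, 3.44 for IFIT3, 3.28 for PROC, 3.26 for PINLYP and 3.23 for HIST1H2BD.

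Of those with the largest contrasts below 0, the values were -6.27 for SPRR2D, -6.19 for DHRS2, -5.82 for GDF15, -5.76 for RPLP0P2, -5.03 for LCE1F, -4.97 for PRR9, -4.45 for L1CAM and -4.43 for TMEM52. They were -4.39 for KIF21B, -4.34 for SLC2A3, -4.2 for UPP1, -4.17 for NEURL1, -4.13 for CDH4, -4.09 for FYN and -4.07 for MGLL. The genes whose opposite dose effects were large under both particles added 3.04 for FASN, -3.61 for THBS1, -3.37 for ALOXE3, -2.88 for PFN2, -3.12 for IGFL1, -3.31 for GJA3 and -3.79 for IL1B.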

How the results depend on the processing

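No paired analysis was possible because the groups share no replicate numbers. Under library weights 1559 genes had opposite dose effects, against 674 with equal weights, and the median contrast was -0.00266; 4252 of the 4353 genes were also called. With a contrast of at least 1 in size required, 1599 genes were called, 754 above and 845 below 0. With each library left out in turn, the counts ran from 3712 to 4265 genes in all, from 1919 to 2174 above 0, from 1793 to 2191 below 0 and from 356 to 779 with opposite effects, and the median contrast from -0.0781 to 0.00201. The low counts of opposite genes came without an undoped library at 320 μg/mL. Median-ratio scaling kept 4149 of the called genes. Of 2986 results of 143 named genes under alternatives, 2970 kept their direction and side of the threshold. Most of the named genes were chosen from these same libraries for large contrasts or small p-values. The count therefore follows largely from that choice and does not describe the other called genes. TGM2 turned to -9.15 FPKM on the linear scale. In 14 results MT1DP, LCE1F or RPL10A missed the threshold, and TGFB1 passed it in 1. The causes were not tested. Median contrasts of collagen chains, laminins and integrins, ribosomal proteins and BCL2 family genes lay near 0 and changed sign between settings. With no counts deposited here, the precision that depth gives is unknown.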
